A study of Mus musculus with 8 samples.

Results

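The genes described here encode the proteins of the mitochondrial ribosome. They were taken by name, as the protein-coding genes whose symbol begins with Mrpl or Mrps followed by a digit. The rule uses no measured value, although earlier results of these data were known when the genes were chosen. It gave 77 genes, 48 Mrpl and 29 Mrps, among 13996 genes with expression values, of which 12531 are protein coding. The values come from RNA sequencing of the brain cortexes of male C57BL/6 mice obtained at 8 weeks of age. In one group 4 mice ate a conventional diet (normal diet) for 8 weeks, and in the other 4 mice ate a diet with 60% fat by weight (high fat diet, HFD) for the same time. All 8 mice were killed at 16 weeks of age, and each gave 1 library from rRNA-depleted total RNA. The mice carry no transgene or other allele that the labels name.

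The mitochondrial ribosome makes the core subunits of the respiratory chain that are encoded by mitochondrial DNA. Its rRNAs are encoded there as well, but all of its proteins are encoded in the nucleus, made in the cytosol and imported. The large subunit holds the peptidyl transferase center and the exit tunnel, and the small subunit decodes the mRNA. Some of the proteins have a counterpart in the bacterial ribosome, and the others are specific to mitochondria. Neurons need much ATP, and inherited loss of single proteins of this family affects the brain, heart and liver.

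The levels are FPKM, the fragments counted for each kilobase of a transcript after scaling by the mapped reads of the library. They were made by the authors with STAR and Cuffnorm and are rounded to 0.1. FPKM keeps no read number, so the depth behind each value is unknown and no counting interval can be given. Differences are on the log2(FPKM + 0.1) scale as HFD minus normal, with the standard error (SE) of the limma fit. A gene was called lower or higher when its p-value was below 0.05 after adjustment by the Benjamini-Hochberg method. The adjustment covered 13982 genes, those that averaged 1 FPKM or more and had no mouse at 0. All 77 genes of the family met that filter. Whether mice of a group shared a cage or litter is not stated, and the p-values measure the spread between these 8 mice only.

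Of the 77 genes, 21 were called lower in HFD and 0 were called higher. Over all genes tested, 15.3% were called lower and 17.7% higher, against 27.3% and 0% of the family. The count was 12 without HFD mouse 2, when 10.7% of all genes were called lower, and 0 with the level of cerebellar markers as a covariate, when 2.71% were. Markers of striatum (7 of 7), oligodendrocytes (6 of 6) and blood (5 of 5) were called lower in the same mice, and their sums are given with those of the other cell types after the gene results. At an unadjusted p below 0.05 the family had 25 genes, of which 1, Mrpl38, was higher in HFD. The decreases were small: they ran from 9.0% for Mrpl48 to 27.7% for Mrpl42, and 7 of the 21 exceeded 20%. None of the 77 was called with a change over 1.5 times in either direction, whereas 7.13% of all genes were. The fitted difference was negative for 55 genes and positive for 22. Its median over the family was −0.09 on the log2 scale (quartiles −0.20 and 0.01), and over all genes it was 0.003 (quartiles −0.16 and 0.19).

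**Figure D1:**
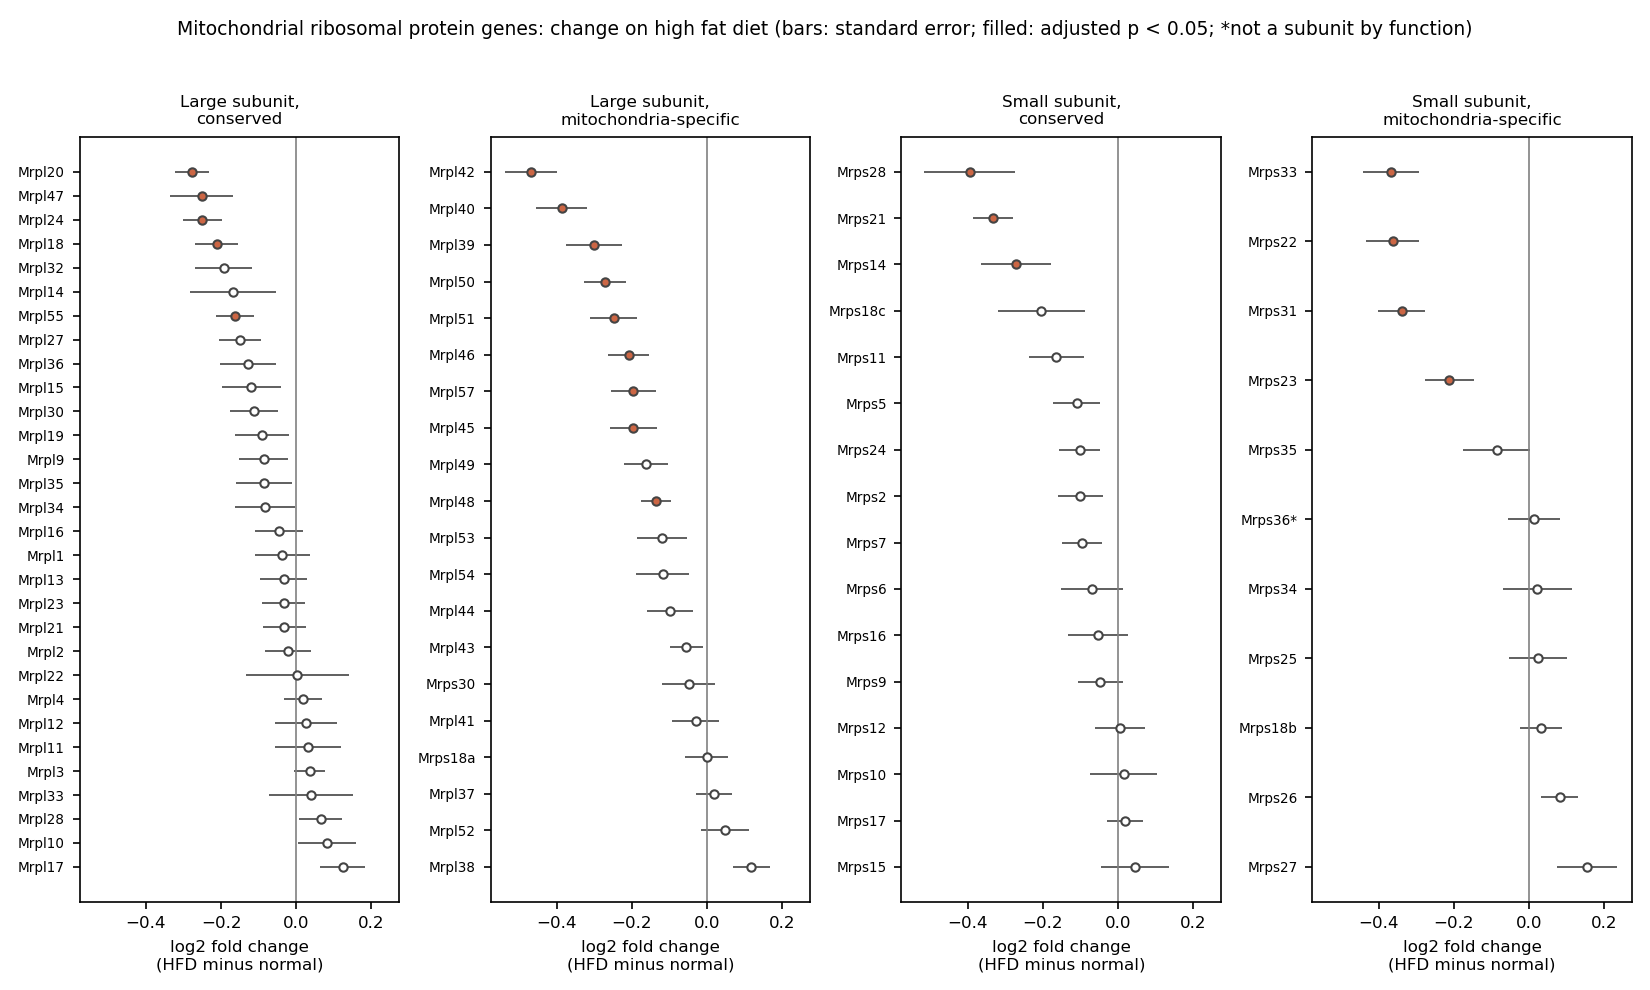
Log2 fold change (HFD minus normal, x axis) of each of the 77 genes, grouped by subunit and by presence of a bacterial counterpart, with bars for the standard error of the limma fit over 4 mice per diet. Filled points mark the 21 genes called lower, which are found in all 4 groups; the differences run from −0.47 for Mrpl42 to 0.16 for Mrps27, and no gene was called higher.

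Promoters were searched for letters bound by factors known to regulate nuclear genes of mitochondrial proteins. These are the nuclear respiratory factor NRF1, the ETS factors, which include GABPA, and YY1. RefSeq windows on GRCm38.p6 from 250 bases before to 50 bases after the transcription start were available for 68 of the 77 genes (74 windows), and they were searched on both strands for GCGCATGC (NRF1), CCGGAAG (ETS) and AAGATGGC (YY1). Each sequence below runs 5′ to 3′ along the gene, from 250 bases before the start to 30 bases from it, and capitals mark the matched letters. Among the 8 genes with the largest decrease, these 3 are shown because a match lies wholly within that stretch. The first base of the transcript counts as 0.
Mrps22, chr9:98601650-98601929, minus strand: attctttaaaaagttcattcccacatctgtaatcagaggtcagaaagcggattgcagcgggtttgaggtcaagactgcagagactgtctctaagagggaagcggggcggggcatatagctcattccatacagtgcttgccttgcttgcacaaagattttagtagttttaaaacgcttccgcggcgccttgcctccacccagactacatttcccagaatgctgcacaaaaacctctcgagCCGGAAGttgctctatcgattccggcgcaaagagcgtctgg
Mrps21, chr3:95871485-95871764, minus strand: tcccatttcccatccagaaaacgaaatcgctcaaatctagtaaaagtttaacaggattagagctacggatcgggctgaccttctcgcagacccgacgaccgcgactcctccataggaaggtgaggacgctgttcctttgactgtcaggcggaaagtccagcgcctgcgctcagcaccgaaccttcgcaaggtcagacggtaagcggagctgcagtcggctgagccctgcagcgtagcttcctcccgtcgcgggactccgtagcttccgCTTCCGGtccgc
Mrpl39, chr16:84735215-84735494, minus strand: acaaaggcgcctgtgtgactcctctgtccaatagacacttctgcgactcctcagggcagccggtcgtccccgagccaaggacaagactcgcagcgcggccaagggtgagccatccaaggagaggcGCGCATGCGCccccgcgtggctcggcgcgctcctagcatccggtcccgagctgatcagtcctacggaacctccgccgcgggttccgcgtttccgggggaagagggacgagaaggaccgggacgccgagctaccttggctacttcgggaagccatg
In Mrps22 the ETS letters stood at −11 to −5, just before the start. Those of Mrps21 lay within the transcript at 18 to 24 and read on the other strand. In Mrpl39 the NRF1 letters were matched on both strands at overlapping positions, −125 to −118 and −123 to −116. These positions count from the RefSeq start. The window lies wholly within the GENCODE span of Mrpl39 (chr16:84717576-84735742), so by that annotation the letters lie inside the gene.

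Among the other genes with the largest decrease, Mrpl42 held the YY1 letters at 27 to 34 and Mrps33 the ETS letters at 38 to 44. Both matches end past the stretch shown. Mrpl40 and Mrps31 held none of the letters in this window, and Mrps28 was not searched, as it had no window. Across the 74 windows of the family, 33.8% held the ETS letters, 16.2% the YY1 letters and 10.8% the NRF1 letters. The shares were 16.0%, 4.28% and 5.11% in the windows of all tested coding genes, and 8.86%, 2.75% and 2.71% in all windows. At least 1 of the 3 was found in 50% of the windows of the family, in 23.3% of those of tested coding genes and in 13.3% of all. Split by the call, 43.5% of the 23 windows of genes that were lower held at least 1, and 52.9% of the 51 windows of the other genes did. The ETS letters were found in 34.8% and 33.3%, the NRF1 letters in 4.35% and 13.7%, and the YY1 letters in 4.35% and 21.6%. Mrpl39 was thus the single called gene with a window that held the NRF1 letters and Mrpl42 the single one that held the YY1 letters, and these shares were not tested. A match is a description of letters and shows no binding.

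The levels of the family spanned a factor of 18.4 on the FPKM scale, which is per length. The highest mean over the 8 mice was that of Mrps21 at 67.8 FPKM, followed by Mrpl30 at 56.3, Mrpl42 at 53.9 and Mrps12 at 50.8. Across the 8 mice these 4 overlapped in part, as Mrps21 ran from 55.9 to 81.5 FPKM and Mrpl30 from 51.5 to 65.1. The lowest means were those of Mrps35 at 3.69 FPKM, Mrpl47 at 4.01, Mrpl32 at 4.38 and Mrpl35 at 5.41. Mrps35, Mrpl47 and Mrpl32 overlapped in their values over the mice, and their order was not resolved. The median level was 20.9 FPKM for the large subunit proteins with a bacterial counterpart and 20.1 FPKM for those specific to mitochondria. In the small subunit the medians were 15.4 and 11.4 FPKM.

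Among the large subunit proteins specific to mitochondria, 9 of 20 (45.0%) were called lower, against 15.3% of all genes tested. The largest decrease of the family was that of Mrpl42 (chr10:95480805-95501940 on GRCm38, minus strand). Its levels were 61.8, 68.1, 64.2 and 56.1 FPKM in normal mice 1 to 4 and 49.4, 42.3, 45.5 and 43.4 FPKM in HFD mice 1 to 4. All 4 HFD mice lay below all 4 normal mice, and the level fell by 27.7% (log2 difference −0.47, SE 0.07, limma adjusted p = 0.00164).

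Mrpl40 (chr16:18872018-18876862, minus strand), whose human counterpart lies in the chromosome region lost in DiGeorge syndrome, had 21.3, 22.9, 21.8 and 20.5 FPKM on the normal diet. On HFD it had 15.8, 18.3, 17.1 and 15 FPKM, so that the diets did not overlap. This decrease was 23.5% (log2 difference −0.39, SE 0.07, limma adjusted p = 0.00329). Its neighbor Hira, the histone chaperone gene that starts within 1 kb on the opposite strand, had a log2 difference of 0.09 (limma adjusted p = 0.515).

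For Mrpl39 (chr16:84717576-84735742, minus strand) the values were 10.2, 10.9, 11.4 and 9.8 FPKM on the normal diet and 9.3, 9.0, 7.8 and 8.2 FPKM on HFD. The lowest normal mouse stood just above the highest HFD mouse, and the log2 difference was −0.30 (SE 0.07, limma adjusted p = 0.0141). The other 6 that fell were Mrpl50 (14.9 to 12.3 FPKM), Mrpl51 (12.6 to 10.6), Mrpl46 (21.7 to 18.8), Mrpl57 (7.35 to 6.40), Mrpl45 (13.5 to 11.8) and Mrpl48 (27.4 to 24.9). Mrpl45 is known to sit at the exit of the tunnel and to hold the ribosome at the inner membrane. Its diets overlapped, since HFD mouse 1 had 12.5 FPKM and normal mouse 4 had 12.4. Mrpl49 lay just outside the threshold, with 21.1 ± 0.624 FPKM on the normal diet and 18.9 ± 1.33 FPKM on HFD (SD, n = 4; limma adjusted p = 0.0551), although its diets did not overlap.

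The other 11 of this group ranged from −0.16 to 0.12 on the log2 scale. They included both large subunit proteins with an Mrps name. Mrps18a had a mean of 45.3 FPKM on either diet (95% interval of the log2 difference −0.13 to 0.13), and Mrps30 had 5.58 and 5.38 FPKM (−0.21 to 0.11). The upper end of the range was Mrpl38, with 22.1, 20.9, 20.6 and 21.7 FPKM on the normal diet and 23.7, 22.2, 24.4 and 22.3 FPKM on HFD. All 4 HFD mice of Mrpl38 lay above the normal mice, but the difference of 0.12 did not pass the adjustment (limma adjusted p = 0.0919).

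Of the large subunit proteins with a bacterial counterpart, 5 of 30 (16.7%) were called lower, close to the 15.3% of all genes tested. The median log2 difference of these 30 was −0.06. Mrpl20, which binds rRNA, fell from 49.6 ± 2.27 to 40.9 ± 0.968 FPKM (SD, n = 4), and its values were 46.3, 51.4, 50.7 and 50 on the normal diet and 40.4, 41.7, 41.6 and 39.7 on HFD. Mrpl24 fell from 25.9 to 21.8 FPKM, Mrpl18 from 28.8 to 24.8, Mrpl55 from 24.7 to 22.1 and Mrpl47 from 4.38 to 3.65. In Mrpl18, HFD mouse 4 and normal mouse 1 shared the value of 26.3 FPKM. Mrpl47 is among the genes of lowest level, and its steps of 0.1 FPKM limit its precision.

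The stalk of the large subunit recruits the translation factors, and none of its members measured here was called. Mrpl12, the stalk protein that also binds the mitochondrial RNA polymerase, had 25.2 ± 2.48 FPKM on the normal diet and 25.6 ± 2.39 on HFD (SD, n = 4). The 95% interval of its log2 difference ran from −0.16 to 0.21. Mrpl10, the protein that anchors the stalk, had 20.5 and 21.8 FPKM, and Mrpl11 at the stalk base had 9.83 and 10.1 FPKM. Among the large subunit proteins with a bacterial counterpart that were not called, Mrpl32 had the most negative difference (4.68 to 4.08 FPKM, log2 difference −0.19, limma adjusted p = 0.0768) and Mrpl17 the most positive (0.12, limma adjusted p = 0.14).

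In the small subunit 7 of 26 genes (26.9%) were called lower, against 15.3% of all genes tested. Of the 10 specific to mitochondria, 4 fell, and the other 6 ranged from −0.09 for Mrps35 to 0.16 for Mrps27. Mrps33 (chr6:39801804-39810988, minus strand) had 18.2, 21.2, 21.0 and 17.1 FPKM on the normal diet and 15, 15.4, 15.3 and 14.1 FPKM on HFD. Its HFD values lay close together and below every normal value (log2 difference −0.37, SE 0.08, limma adjusted p = 0.0063).

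Mrps22 (chr9:98588730-98601660, minus strand) is a small subunit protein in which inherited mutations impair oxidative phosphorylation. It had 14.3, 15.8, 14.6 and 14.3 FPKM on the normal diet and 10.3, 12.6, 12 and 11 FPKM on HFD. The diets did not overlap, and the decrease was 22.2% (log2 difference −0.36, SE 0.07, limma adjusted p = 0.00502).

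Mrps31 (chr8:22411361-22429665, plus strand), first known as a mitochondrial autoantigen of diabetes, had 12.9, 14.4, 14.1 and 12.7 FPKM on the normal diet and 11.4, 10.7, 10 and 10.6 FPKM on HFD. Again no value was shared between the diets (log2 difference −0.34, SE 0.06, limma adjusted p = 0.00411). The fourth was Mrps23, which fell from 25.8 to 22.3 FPKM. Mrps26 had all 4 HFD mice above the normal mice, at 9.2 to 9.6 against 8.5 to 9.1 FPKM, but with a log2 difference of 0.08 it did not pass (limma adjusted p = 0.224).

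**Figure D2:**
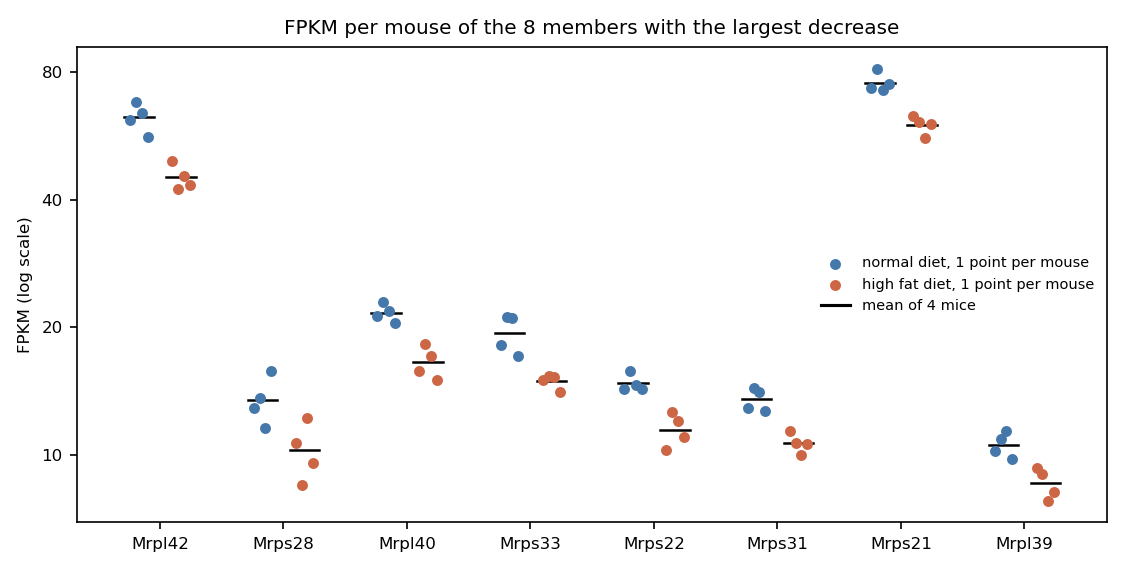
FPKM (log axis) of the 8 genes with the largest decrease, with 1 point per mouse and a bar at the mean of the 4 mice of a diet. In Mrps28 the diets overlap, since HFD mouse 3 at 12.2 FPKM lies above normal mouse 3 at 11.6 FPKM, and in the other 7 every HFD mouse lies below every normal mouse.

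Among the 16 small subunit proteins with a bacterial counterpart, 3 (18.8%) were called lower, against 15.3% of all genes tested. Mrps21 (chr3:95862634-95871519, minus strand) had 73.4, 81.5, 72.6 and 74.8 FPKM on the normal diet and 62.9, 61.1, 55.9 and 60.2 FPKM on HFD. The gene with the highest level of the family thus fell by 20.5%, with no overlap (log2 difference −0.33, SE 0.05, limma adjusted p = 0.00236). Mrps28 (chr3:8802146-8923918, minus strand) had 12.9, 13.6, 11.6 and 15.8 FPKM on the normal diet and 10.7, 8.5, 12.2 and 9.6 FPKM on HFD. This was the second largest decrease, 24.0%, and the most variable of the 21 (log2 difference −0.40, SE 0.12, limma adjusted p = 0.0325).

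Mrps14 was the gene just inside the threshold, with 22.5, 23.0, 22.3 and 21.2 FPKM on the normal diet and 19.4, 19.0, 14.9 and 20.9 FPKM on HFD (limma adjusted p = 0.0492). HFD mouse 4 lay just below normal mouse 4, and HFD mouse 3 lay well below the others. The other 13 ranged from −0.20 for Mrps18c to 0.05 for Mrps15.

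The mammalian counterparts of bacterial protein S18 are 3 paralogs that sit at different places, Mrps18b and Mrps18c in the small subunit and Mrps18a in the large. In the grouping by origin, only Mrps18c was placed with the proteins that have a bacterial counterpart. Mrps18a and Mrps18b were counted as specific to mitochondria. None of the 3 paralogs was called. Mrps18c had the most negative difference (23.8 ± 3.56 to 20.7 ± 2.7 FPKM, SD, n = 4), with a 95% interval from −0.46 to 0.06 on the log2 scale. The interval of Mrps18b (9.78 to 10 FPKM) was −0.09 to 0.16, narrower and centered near 0. Mrps36 carries a ribosomal name, but its protein is a component of the α-ketoglutarate dehydrogenase complex. Its levels were 9.90 ± 0.600 and 10 ± 0.726 FPKM, with an interval from −0.14 to 0.17.

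By origin, 13 of 30 proteins specific to mitochondria (43.3%) and 8 of 46 with a bacterial counterpart (17.4%) were called lower. Over all genes tested the share was 15.3%, close to that of the second group. The medians were −0.12 and −0.08 on the log2 scale. By subunit, 14 of 50 large subunit genes (28.0%) and 7 of 26 small subunit genes (26.9%) were called lower, with medians of −0.09 in both. No difference between these groups was tested.

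Over the 8 mice, 19 genes of the family had all 4 HFD values below all 4 normal values, and 2, Mrps26 and Mrpl38, had them above. Of all genes tested, 14.7% had all HFD values below and 17.2% had them above. Of the 21 called genes, 18 were without overlap, and Mrps28, Mrpl18 and Mrpl45 were not. The call and the overlap rest on the same values, so this count largely follows from the call. The summed level of the 77 genes was 1597, 1670, 1615 and 1588 FPKM in normal mice 1 to 4. In HFD mice 1 to 4 it was 1548, 1451, 1498 and 1494 FPKM. The mean sum was 1617 ± 36.5 FPKM on the normal diet and 1498 ± 39.4 FPKM on HFD (SD, n = 4), a difference of −7.39%, and the sums did not overlap between the diets. Over all genes tested the mean sum differed by −1.19%, and those sums did overlap. In HFD mice 1 to 4, 28, 46, 39 and 37 of the 77 genes lay below every normal mouse, or 36.4%, 59.7%, 50.6% and 48.1%, against 27.8% to 30.3% of all genes tested. Above every normal mouse lay 13, 6, 12 and 9 of the 77, or 16.9%, 7.79%, 15.6% and 11.7%, against 29.9% to 33% of all genes. HFD mouse 1 was thus nearest to the normal mice in this family and HFD mouse 2 farthest.

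**Figure D3:**
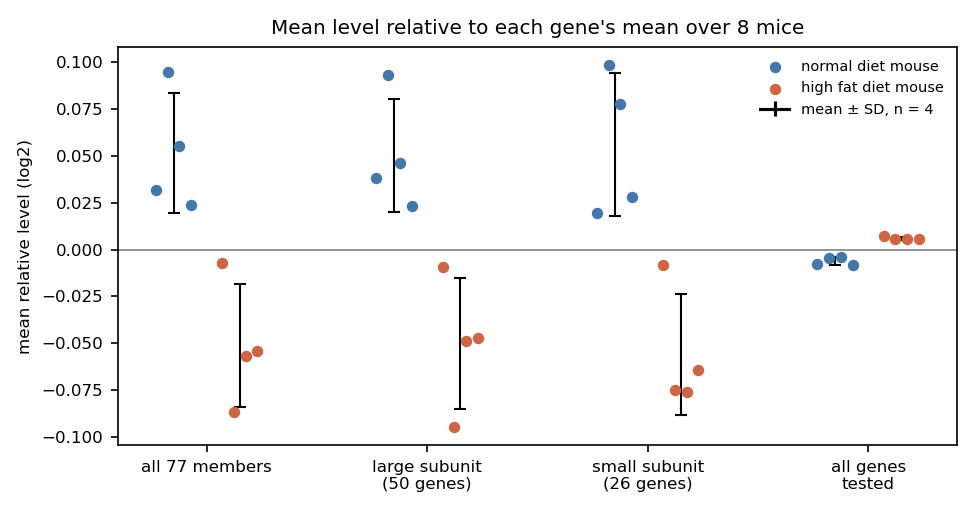
Mean over genes of log2(FPKM + 0.1) minus the mean of the gene over the 8 mice (y axis), for the whole family, each subunit and all genes tested, with 1 point per mouse and bars for mean ± SD over 4 mice. In the family the normal mice lie between 0.02 and 0.09 and the HFD mice between −0.09 and −0.01, whereas for all genes tested the 8 mice lie within 0.01 of 0.

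Markers of neighboring brain regions moved with the diet and differed among the normal mice. The 7 cerebellar markers in the data summed to 22.2, 220, 305 and 73.1 FPKM in normal mice 1 to 4 and to 17.8 to 22.3 FPKM in HFD mice, and 3 of them were called lower. Gabra6, which defines granule cells, was listed at 0 in a mouse. Striatal markers summed to 205 to 376 FPKM against 58.0 to 68.3 (7 of 7 lower), and thalamic ones to 38.8 to 152 against 23.5 to 29.7 (2 of 6 lower). Oligodendrocyte markers summed to 2019 to 3339 FPKM against 1396 to 1937 (6 of 6 lower). Blood markers summed to 239 to 480 against 199 to 247 (5 of 5 lower), and choroid plexus markers to 343 to 726 against 21.0 to 941 (2 of 5 lower). Markers of cortical projection neurons, which define the labelled tissue, were present in all mice and summed to 304 to 454 FPKM against 501 to 586 (5 of 8 higher). Sums of endothelium were 52.9 to 58.8 against 41.5 to 47.2 (2 of 4 lower). Interneuron markers summed to 417 to 468 FPKM against 374 to 418 (3 of 6 lower, 2 higher), and 3 of the 4 HFD mice lay below every normal mouse. The sums of astrocytes were 689 to 714 against 682 to 724 (2 of 6 lower, 1 higher) and those of microglia 102 to 122 against 107 to 118 (0 of 5 called), with the diets overlapping in both. In bulk tissue fewer cells of a type and less RNA per cell cannot be told apart. Neither can be told from a different share of neighboring regions in the dissected tissue, which was not tested.

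The mean relative level of the family was highest in normal mice 2 and 3, at 0.09 and 0.05 on the log2 scale. It was 0.03 and 0.02 in normal mice 1 and 4. Mice 2 and 3 had the most cerebellar marker RNA, but also the most thalamic (38.8, 150, 152 and 56.7 FPKM in normal mice 1 to 4). Their oligodendrocyte sums were highest too (2715, 3339, 2998 and 2019), and those of cortical projection neurons lowest (429, 321, 304 and 454). Striatal sums had another order (376, 311, 297 and 205). With the cerebellar marker level as a covariate, 0 of the 77 genes were called lower in limma, and 12 of the 21 had an unadjusted p below 0.05. All genes tested dropped to 2.71% called lower and 3.30% called higher in that fit. The 21 kept a negative difference, with a median of −0.23 against −0.27 without the covariate. They were picked as lower in these same mice, so their sign and unadjusted p-values give no separate support. Over all 77 genes the median was −0.05 with the covariate and −0.09 without it. With normal mice 1 and 4 alone set against the 4 HFD mice, a choice made after seeing the data, 12 genes were called lower, 11 of them among the 21, and 8.69% of all genes were. Mrpl42, Mrps28, Mrpl40, Mrps33, Mrps22, Mrps31 and Mrps21 were among these 11. The part of the other marker lists in the differences was not tested.

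The diets also differed along base composition. Across all genes with a value, the log2 difference and the GC content of the transcript had a Spearman's rho of 0.150, and across the 77 genes it was 0.295. Genes share libraries and are not independent, so these are descriptions. Split evenly by GC, 9 of the 26 genes with the lowest values (40.2 to 49.1%) were called lower, 9 of the 25 in the middle, and 3 of the 26 with the highest values (53.8 to 62.2%). All genes in the same GC ranges were called lower in 21.7%, 14.4% and 8.98% of cases. After a correction for GC, 18 genes of the family were called lower, 16 of them among the 21, and 14.4% of all genes were.

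**Figure D4:**
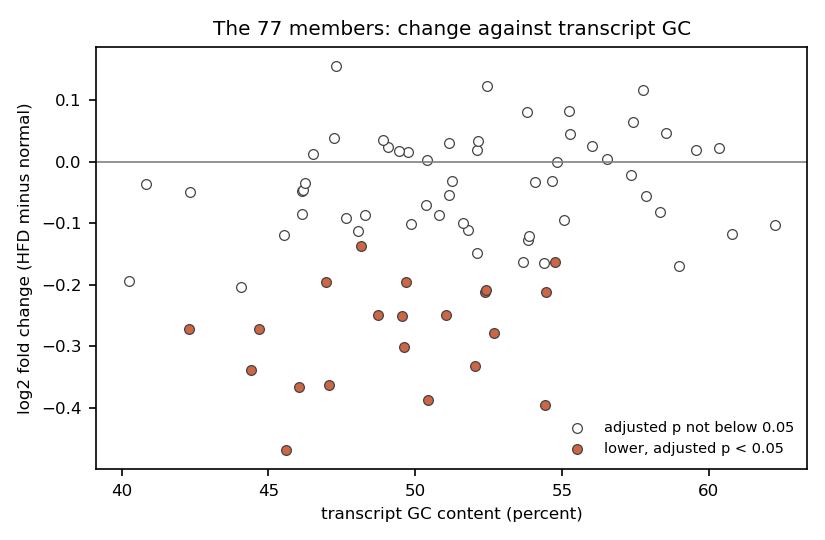
Log2 fold change (HFD minus normal, y axis) against transcript GC content in percent (x axis) for the 77 genes, with the 21 genes called lower filled. From 53.8 to 62.2% GC, 3 of 26 genes are filled, and from 40.2 to 49.1% GC, 9 of 26.

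The genes are spread over 17 chromosomes, and 33 have the start of another coding gene within 1 kb on the opposite strand. In 27 cases the partner was tested, and 5 partners were called lower and 3 higher. Over all genes tested, 15.3% were called lower and 17.7% higher, and no difference from these shares was tested. The 5 include Mrpl46, itself a called gene of the family, and its pair with Mrps11 is counted from both sides. For the called genes 7 partners were tested, of which 2 were lower. Tcp1, a subunit of the cytosolic chaperonin that faces Mrpl18, fell from 97.4 to 85.4 FPKM (limma adjusted p = 0.00498), and Zfp189, a zinc finger gene that faces Mrpl50, fell from 7.40 to 4.80 FPKM (limma adjusted p = 0.00225). Mrpl46 and Mrps11 are partners of each other, with log2 differences of −0.21 and −0.16, of which the second did not pass (limma adjusted p = 0.115). A gene on the other strand overlaps 35 of the 77 genes, and a gene on the same strand overlaps 13. The libraries were stranded, but whether Cuffnorm used the strand is not stated, so shared reads cannot be set apart. Pseudogenes with the same name exist for Mrpl23, Mrpl48 and Mrps36, whose values are uncertain for that reason.

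The mitochondrial ribosome also holds proteins with other names, and 5 of them were measured. Chchd1 fell from 35.6 ± 2.32 to 31.1 ± 1.53 FPKM (SD, n = 4), with 34.9, 32.7, 36.6 and 38.1 FPKM on the normal diet and 32.1, 29.1, 30.8 and 32.5 FPKM on HFD (limma adjusted p = 0.0323). The other 4 had negative differences that did not pass. Ptcd3, an RNA-binding protein at the mRNA entry, had 15.5 and 14.1 FPKM, and Gadd45gip1, which lies near the tunnel exit, had 13.0 and 12.1. Dap3, a GTP-binding protein of the small subunit, had 29.9 and 28.6 FPKM, and Aurkaip1 had 46.2 and 46.0.

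Other genes of mitochondrial gene expression were called in both directions. Over 6 lists with 86 tested genes, 6 (6.98%) were called lower and 10 (11.6%) higher, against 15.3% and 17.7% of all genes, and the median log2 difference was −0.05. With the 5 ribosomal proteins above, these were 7 and 10 of 91 genes. Of 24 assembly factors, 1 fell, Mtg2, a GTPase of large subunit assembly (6.80 to 5.68 FPKM, limma adjusted p = 0.0172). Mettl17, a methyltransferase-like protein of small subunit assembly, rose from 6.85 to 8.20 FPKM (limma adjusted p = 0.0163).

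Among 15 translation factors only Guf1, an elongation factor GTPase, was called, and it rose from 9.00 to 10.7 FPKM (limma adjusted p = 0.0206). Tufm, the elongation factor that brings tRNA to the ribosome, had 33.3 ± 3.02 and 29.2 ± 1.34 FPKM (SD, n = 4; limma adjusted p = 0.0626). Lrpprc, which stabilizes mitochondrial mRNAs, had 22.3 and 20.6 FPKM (limma adjusted p = 0.0972). Of 17 aminoacyl-tRNA synthetases, 2 fell and 1 rose. Iars2, which charges tRNA with isoleucine, had 15.4, 14.2, 15 and 14.6 FPKM on the normal diet and 11.7, 12.2, 12.1 and 11.9 on HFD, a decrease of 18.9% without overlap (limma adjusted p = 0.00194). Vars2, the valine enzyme, rose from 5.15 to 6.20 FPKM (limma adjusted p = 0.011).

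**Figure D5:**
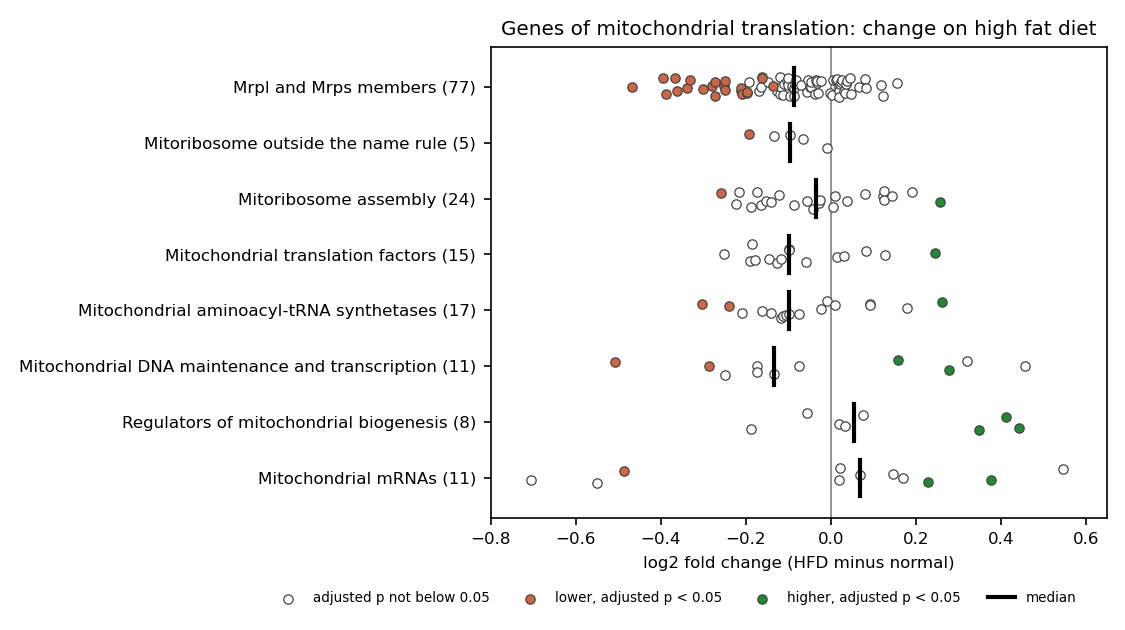
Log2 fold change (HFD minus normal, x axis) of the 77 genes and of the genes in 7 other lists of mitochondrial gene expression, with 1 point per gene, a bar at the median, and colors for genes called lower or higher. The family has 21 points called lower and 0 called higher, and the 7 lists together have 7 and 10.

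Of 11 genes for the upkeep and transcription of mitochondrial DNA, 2 fell and 2 rose. Polrmt, the mitochondrial RNA polymerase, rose from 7.93 ± 0.506 to 9.63 ± 0.31 FPKM (SD, n = 4; limma adjusted p = 0.00827). Polg2, the accessory subunit of the DNA polymerase, fell from 1.40 to 0.95 FPKM, a level at which the rounding to 0.1 matters (limma adjusted p = 0.0466). Tfam, which packs mitochondrial DNA, had 14.7 and 13.0 FPKM (limma adjusted p = 0.123).

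Of 8 regulators of mitochondrial biogenesis, 3 rose and 0 fell. Ppargc1a, the coactivator known to induce genes of mitochondrial proteins, had 9.0, 9.9, 8.7 and 9.9 FPKM on the normal diet and 13.2, 12.9, 13.1 and 11.9 FPKM on HFD. This was an increase without overlap (log2 difference 0.44, SE 0.06, limma adjusted p = 0.00141). Its relatives Ppargc1b (4.58 to 5.85 FPKM) and Pprc1 (2.60 to 3.50 FPKM) rose as well. The factors whose letters were searched in the promoters were not called: Nrf1 had 9.83 and 10.1 FPKM, Gabpa 9.70 and 8.45, and Yy1 13.1 and 13.3.

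The products of the mitochondrial ribosome are encoded by mitochondrial mRNAs, of which 11 were tested. mt-Nd5 rose from 207 to 269 FPKM (limma adjusted p = 0.00329) and mt-Nd4 from 365 to 428 (limma adjusted p = 0.0203). mt-Nd6 fell from 142 to 101 FPKM (limma adjusted p = 0.0136). These called genes encode subunits of complex I, but a pattern by complex cannot be read from the calls. The mean levels of mt-Co2 (2.98 FPKM), mt-Co3 (4.83), mt-Atp6 (1.41), mt-Atp8 (6.48) and mt-Nd3 (1.84) were far below those of mt-Nd1 (2271) and mt-Cytb (2319). Small changes could hardly be called there, and mt-Co1 and mt-Nd4l had no values. The reason for these low and missing levels was not tested, and the calls of the mitochondrial mRNAs carry that limit. mt-Nd6 is encoded on the other strand from the rest. With the cerebellar covariate, 4 of the 91 genes were called, against 17 without it.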

How the data were processed

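One stranded library was sequenced from the cortex of each of 4 normal diet and 4 HFD mice. The authors checked and trimmed reads (FastQC, Trimmomatic), used STAR to align them to mm10, and deposited FPKM from Cuffnorm on GENCODE M17 (GRCm38.p6), rounded to 0.1. For these tools no versions were given in the sources used here. Output of Salmon and edgeR, which the authors also ran, was not used. The filter kept genes that averaged 1 FPKM or more with no mouse at 0, which left out 14 of 13996 genes. The study compared FPKM by a test between the diets; limma 3.58.1 in R 4.3.3 replaced it here because each group has 4 mice. It was run two-sided on log2(FPKM + 0.1) with a variance trend, on all 8 mice without covariates, with Benjamini-Hochberg adjustment over 13982 genes. A call needed an adjusted p below 0.05.

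Python 3.11.15 with pandas 2.3.3, numpy 2.4.6, scipy 1.17.1 and matplotlib 3.10.9 made the tables and figures. The fit was tested on simulated data with planted changes larger than those of the family and noise independent between genes. That test does not bear on calls of the size found here. Coordinates, GC and overlaps come from GENCODE M21 on GRCm38, later than the authors' M17, and promoters from RefSeq. GC values existed for 99.9% of genes. The genes, lists and tests were chosen with earlier results of these data known. Named genes were the 8 largest called changes each way, the 4 highest and 4 lowest levels, the genes on either side of the threshold, genes picked by role, the 5 ribosomal proteins with other names, and in each list the largest called change each way with 7 known genes. The remaining called genes and the ends of each range were named after their values were seen. Listed genes without a row were not analysed here. The alternatives tried were an added constant of 1, other filters, median-ratio and quantile scaling, no variance trend, GC and length corrections (loess, span 0.5), a cerebellar marker covariate, the replicate number as a block, normal mice 1 and 4 only (added after seeing the data) and each mouse left out in turn.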

Additional observations from a re-analysis of the deposited data

Results flagged for a closer look

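In 3 of the tested sets of 4 mice, 1 mouse stood apart from the other 3 by Dixon's criterion at the 95% level. Among 88 sets over 44 named genes, 2 were found, where chance gives about 1 in 20. Mrpl12 had 29.2 FPKM in HFD mouse 3, against 24.1 to 24.6 FPKM in the other HFD mice. Mtg2 had 7.2 FPKM in normal mouse 4, against 6.6 to 6.7 FPKM in the other normal mice. The summed level of the 26 small subunit genes was 468.3 FPKM in HFD mouse 1, against 440.5 to 444.1 FPKM in the other HFD mice and 480.8 to 509.4 FPKM in the normal mice.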

How the results depend on the processing

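Of the 77 genes, 21 were called lower with all mice and 0 higher, and 0 were called higher under each alternative run. The count called lower was 12 to 18 when single mice were left out, and it was 12 without HFD mouse 2, while the share of all genes called lower was 10.6% to 15.3% and, without that mouse, 10.7%. The count was 0 with the cerebellar marker covariate (2.71% of all genes) and 12 with normal mice 1 and 4 only (8.69%), chosen after seeing the data. With another added constant, other filters, other scaling, no variance trend or a GC or length correction it was 17 to 22. The share of all genes called lower was then 13.7% to 18.7%. The median of the family stayed negative under every alternative. The 17 calls of the 7 other lists became 4 with the cerebellar covariate, 10 with normal mice 1 and 4 only, and 11 to 19 with each mouse left out (11 without HFD mouse 2 or normal mouse 3). The cause of these changes was not tested. Mrpl42, Mrpl40, Mrps33, Mrps22, Mrps31, Mrps21, Mrpl39, Mrpl20, Mrpl50, Mrpl24 and Mrpl51 were called in 8 of 8 fits with a mouse left out. The others of the 21 lost the call in at least 1 of them, Mrpl47 being called in 1, Mrps14 and Mrpl57 in 2, and Mrps28, Mrpl45 and Mrpl55 in 3.

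With the replicate number as a block, 12 of the 77 genes and 11.1% of all genes were called lower, and 10 genes of the other lists were called. With the replicate block and the GC correction together, these counts were 14 and 5, and 10.5% of all genes were called lower. The deviations of same-numbered mice from their diet means correlated at −0.04, −0.03, −0.11 and −0.07. These values cannot decide whether same-numbered mice shared a cage, litter or batch, because the normal mice also differed in cerebellar marker RNA. FPKM keeps no read number, so what depth limits could not be given, and the steps of 0.1 FPKM limit Mrpl47, Mrps35 and Mrpl32, the 3 genes with a mean under 5 FPKM.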
